A study of Mus musculus with 2 samples.

Results

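The anterior segment of the mouse eye, dissected without the iris, held a small population of T and NK cells in both genotypes. Barcodes were taken as T and NK cells where Cd3d, Cd3e, Cd3g, Trbc2 and Nkg7 together gave at least 2 UMIs (unique molecular identifiers, each a captured mRNA molecule) and Ptprc, which encodes the pan-leukocyte protein CD45, gave at least 1. Barcodes with more than 2 UMIs of C1qa, C1qb and C1qc, with 5 or more Kera UMIs per 10000, or with any Cdh5 UMI were left out, as were those under 500 UMIs or over 8% mitochondrial UMIs. Of 22941 deposited barcodes, 21724 were kept, 10789 in the Control library and 10935 in the NC-Foxc2-/- library. The rule found 143 T and NK cells, 57 in Control and 86 in NC-Foxc2-/-. Because measured UMIs chose these cells, the levels of the genes in the rule are a description of them and not a finding.

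The Control library came from Foxc2 flox/flox mice without Cre, and the NC-Foxc2-/- library came from Foxc2 flox/flox;Wnt1Cre+ mice, so both carried the floxed Foxc2 alleles. Wnt1Cre deletes in the neural crest lineage, which builds the trabecular meshwork, corneal stroma and corneal endothelium and does not give rise to blood cells. Eyes of 4 to 6 mice at 3 to 4 weeks of age (labelled 4 weeks) on a mixed strain background were pooled for each genotype, and the mutant mice were those with a moderate ocular phenotype. There was 1 pooled library for each genotype, so no difference between genotypes could be tested. Every interval given is a 95% interval that covers counting error only, and a difference between libraries cannot be told apart from a difference between genotypes.

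T cells recognise antigen through a receptor made of alpha and beta or of gamma and delta chains, which signals through the CD3 chains. NK cells and other innate lymphocytes lack a rearranged receptor and act through germline receptors, granzymes, perforin or cytokines. In the front of the eye such cells are known from the limbus and conjunctiva, where gamma delta T cells and memory CD8 T cells can live for long periods, whereas the central cornea is normally poor in lymphocytes.

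The T and NK cells were shallow in reads. They held 299984 UMIs in Control and 375420 in NC-Foxc2-/-, with a median of 3748 and 3647 UMIs and 1359 and 1364 genes per cell. Macrophages (Ptprc with more than 2 C1q UMIs) had medians of 6881 and 6394.5 UMIs, and keratocytes (at least 20 Kera UMIs per 10000 and no Ptprc UMI) had medians of 16032 and 14212. Of 52 barcode sequences found in both libraries, 0 belonged to a T or NK cell.

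Cells lay close to the threshold on both sides. In Control 2 cells and in NC-Foxc2-/- 6 cells stood at exactly 2 UMIs of the T and NK genes, and 4 and 6 cells that met every other limit had 1. A further 29 and 44 cells met every limit but had no Ptprc UMI, whereas 20 and 35 of the chosen cells had exactly 1. The Ptprc limit therefore set the border for more cells than the T and NK gene limit.

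Some of the chosen cells also carried RNA of other cell types. With a limit set after the values were seen, 10 of the 57 Control cells and 12 of the 86 NC-Foxc2-/- cells held 20 or more UMIs of a list of stromal, meshwork, epithelial, endothelial, pericyte, Schwann cell, melanocyte or erythroid genes. These cells carried 41.6% and 24.1% of all T and NK cell UMIs. Scrublet, a doublet caller, marked 0 of the 10 and 6 of the 12, and none of the remaining T and NK cells. The foreign RNA differed between the libraries. In Control it was rich in pericyte and smooth muscle genes (677 UMIs in 11 cells, against 81 in 15). Erythroid genes (481 UMIs, 402 of them in 1 cell, against 42) and epithelial genes (393 UMIs, 370 of them in 1 cell, against 134) were also higher there. In NC-Foxc2-/- it was rich in keratocyte and stromal genes (1968 UMIs in 85 of 86 cells, against 828 in 38 of 57). A single NC-Foxc2-/- cell held 794 of the 1968. Summed levels were therefore also computed without these cells, which left 47 and 74 cells, and the values are given where they differ. The limit was not scaled to depth, so the cells left out were on average deeper than the rest. Leaving them out did not remove all stromal RNA. The keratocyte and stromal list then had a ratio of NC-Foxc2-/- over Control of 2.14 (1.63 to 2.83).

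Genes of other leukocytes were scarce. Of 14 macrophage genes, 8 had a UMI, and Apoe gave 245 of the 266 UMIs in Control and 127 of the 158 in NC-Foxc2-/-. Of 11 B cell genes 2 had a UMI, and Cd79a, which defines B cells, was at 0 in both libraries. The 5 neutrophil genes were at 0 in both. The part that RNA of other cell types had in any difference below was not tested beyond the values without these cells.

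Foxc2 itself (chr8:121116171-121118895, GRCm38) had 0 UMIs in the T and NK cells of either library, where a floor of 3 UMIs would be 10.0 and 7.99 CPM (UMIs per 1000000 UMIs). In all other kept cells its level was 13.1 and 6.62 CPM, a ratio of 0.506 (0.461 to 0.556). Foxc2 was thus lower in the surrounding tissue and was not detectable at this depth in the lymphocytes.

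T and NK cells made up 0.528% of kept cells in Control (0.400 to 0.684%) and 0.786% in NC-Foxc2-/- (0.630 to 0.970%), a ratio of 1.49 (1.05 to 2.12). Macrophages stood at 1.01% and 1.35%, a ratio of 1.34 (1.04 to 1.73), and B cells (Ptprc, at least 2 UMIs of Cd79a and Cd79b, and at most 1 of the T and NK genes) at 0.176% and 0.293%, a ratio of 1.66 (0.914 to 3.10). All 3 leukocyte classes were more frequent in the NC-Foxc2-/- library, and their intervals overlapped. As a share of cells with a Ptprc UMI, T and NK cells were 18.4% of 310 cells in Control and 19.4% of 444 in NC-Foxc2-/-, a ratio of 1.05 (0.745 to 1.50), so their place among leukocytes was close in both. With erythroid and epithelial cells taken out of the denominator the shares were 0.725% and 0.900%, a ratio of 1.24 (0.874 to 1.78). The ratio therefore moved with the denominator.

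**Figure D1:**
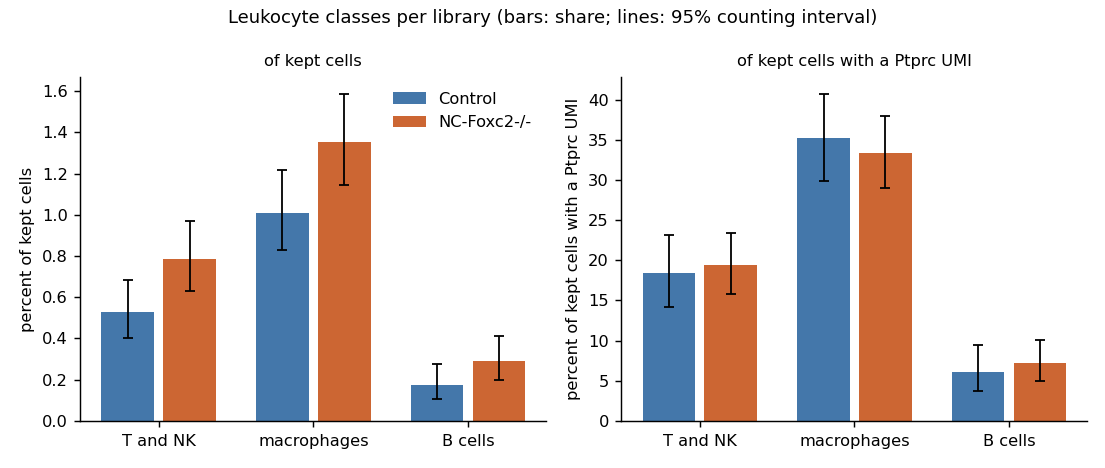
Percent of kept cells (left) and of kept cells with a Ptprc UMI (right) that were T and NK cells, macrophages or B cells in the Control and NC-Foxc2-/- libraries, with bars from 0 and 95% exact intervals. T and NK cells stood at 0.528% and 0.786% of kept cells and at 18.4% and 19.4% of cells with a Ptprc UMI.

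Genes that set these cells apart from the rest of the tissue were those of the receptor and of cytotoxic granules. Among genes with at least 100 UMIs in the T and NK cells, the 15 with the highest level over all other kept cells included 4 genes of the rule, Nkg7 at 2126-fold, Cd3d at 792-fold, Trbc2 at 511-fold and Cd3g at 460-fold, and Trbc1 at 547-fold. The cells were also marked by genes the rule did not use. Gzma, a serine protease of cytotoxic granules, was 2070-fold (1693 to 2551) higher than in all other kept cells and had 0 UMIs in the macrophages and B cells of both libraries. Ms4a4b, a membrane protein of T and NK cells, was 1232-fold (1007 to 1517) higher and was present in 42 of 57 and 56 of 86 cells. Ctla4, an inhibitory receptor, was 759-fold higher, Sh2d2a, an adaptor of T cell signaling, 672-fold, and Ctsw, a protease of cytotoxic cells, 519-fold. Cd2, an adhesion receptor, was 503-fold higher but was shared with B cells, which had 200.1 and 259 CPM. Gimap3, Gzmb and Txk stood at 466-, 385- and 360-fold. Because the cells were chosen by correlated genes, these folds describe the class and carry no test.

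Sequence upstream of 4 genes described here is shown. These are Cd3d and Cd3g, 2 CD3 genes of the rule that were not called, and Gzma, the granzyme called lower below. The last is Il5, a cytokine outside the 15 genes that was seen in the T and NK cells of only 1 library. Each is the 250 bases before the RefSeq start, 5′ to 3′ on the strand of the gene, in GRCm38.p6. Cd3d (chr9:44981536-44981785, plus strand) and Cd3g (chr9:44980432-44980681, minus strand) are neighbours that point away from each other, Gzma is at chr13:113100982-113101231 (minus strand) and Il5 at chr11:53720544-53720793 (plus strand). Each window ends at the start of its gene, and the genes themselves span chr9:44981786-44987339 (Cd3d), chr9:44969572-44980431 (Cd3g), chr13:113093825-113100981 (Gzma) and chr11:53720794-53725106 (Il5). Capitals mark a match to 1 of 3 motifs searched on both strands: the RUNX motif TGTGGT, which reads ACCACA on the other strand, the GATA motif AGATAA, which reads TTATCT there, and the ETS motif AGGAAG, which reads CTTCCT there. The motifs do not overlap each other in these windows.
Cd3d: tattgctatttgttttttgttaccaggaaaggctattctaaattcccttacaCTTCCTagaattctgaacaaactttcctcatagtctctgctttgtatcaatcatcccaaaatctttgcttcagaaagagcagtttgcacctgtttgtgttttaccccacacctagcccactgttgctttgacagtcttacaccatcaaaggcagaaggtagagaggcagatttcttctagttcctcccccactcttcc
Cd3g: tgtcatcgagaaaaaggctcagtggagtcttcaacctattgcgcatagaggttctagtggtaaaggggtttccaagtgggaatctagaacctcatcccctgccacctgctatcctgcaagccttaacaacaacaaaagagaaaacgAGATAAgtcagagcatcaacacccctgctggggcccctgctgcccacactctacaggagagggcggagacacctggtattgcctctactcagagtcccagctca
Gzma: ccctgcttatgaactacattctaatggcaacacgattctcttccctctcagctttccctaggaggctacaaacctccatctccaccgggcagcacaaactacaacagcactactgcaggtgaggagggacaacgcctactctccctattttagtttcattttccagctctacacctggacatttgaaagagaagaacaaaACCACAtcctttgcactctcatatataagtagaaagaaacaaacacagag
Il5: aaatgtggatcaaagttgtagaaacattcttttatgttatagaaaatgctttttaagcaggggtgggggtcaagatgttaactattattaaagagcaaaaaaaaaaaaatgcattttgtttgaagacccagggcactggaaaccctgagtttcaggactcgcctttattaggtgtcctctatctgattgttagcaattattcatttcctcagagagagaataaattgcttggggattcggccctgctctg
The Cd3d window held 1 ETS match, the Cd3g window 1 GATA match and the Gzma window 1 RUNX match, and the Il5 window held no match of the 3. Over 32851 such windows of all genes, 14.0% held the RUNX letters, 9.99% the GATA letters and 29.5% the ETS letters. Of 15 T and NK genes looked up, 9 had a window, of which 4, 2 and 5 held a match.

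The chains of the T cell receptor and CD3 complex summed to 3634 and 3117 CPM in the Control and NC-Foxc2-/- libraries, a ratio of NC-Foxc2-/- over Control of 0.858 (0.789 to 0.932). Cd3d had 161 UMIs in 42 Control cells and 172 UMIs in 62 NC-Foxc2-/- cells, 537 and 458 CPM, a ratio of 0.854 (0.685 to 1.07). Trbc2, a constant region of the beta chain, had 308 and 422 UMIs, 1027 and 1124 CPM, a ratio of 1.09 (0.943 to 1.27). Trbc1 stood at 537 and 519 CPM, and Trbc1 and Trbc2 are near-identical, so the split of reads between them is uncertain. Trac, the constant region of the alpha chain, had 114 UMIs in 36 cells and 89 UMIs in 42 cells, 380.0 and 237 CPM, a ratio of 0.624 (0.467 to 0.830). Of the 11 genes of the complex, 8 had at least 50 UMIs over both libraries.

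A gene with 50 or more UMIs in the 2 libraries together was called higher at a ratio of 2 or more and lower at 0.5 or less, by size alone. Of 1927 genes that reached this depth, 58 (3.01%) were called higher and 139 (7.21%) lower in NC-Foxc2-/-, and the median ratio was 0.926, a log2 shift of -0.11 against which each ratio is read. Higher calls were 29.4% of all calls, and 44.0% once ratios were scaled to a median of 1. Without the cells that held 20 or more UMIs of another cell type, 1259 genes reached 50 UMIs, of which 36 (2.86%) were higher and 31 (2.46%) lower, and 21 and 22 of these were among the calls over all cells. In 10 of the 58 higher genes and 18 of the 139 lower genes, over 50% of the UMIs of the higher library came from 1 cell. In summed counts, fewer cells of a type and less RNA per cell cannot be told apart. Counts of calls in the gene lists below are to be set against the 3.01% higher and 7.21% lower of all genes. A single call in a list is not read as a trait of that list.

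Within the receptor complex 1 of 8 genes was called, against 3.01% higher and 7.21% lower of all 1927 genes. It was Trdc, the constant region of the delta chain. Trdc (chr14:54142851-54148868) had 86 UMIs in 8 Control cells and 51 UMIs in 11 NC-Foxc2-/- cells, 287 and 136 CPM, a ratio of 0.474 (0.328 to 0.678), and 0.455 without the cells with other RNA. A single Control cell gave 56 of the 86 UMIs. When each cell was weighted equally, the ratio of Trdc was 1.05, so the direction depended on how the cells were weighted. The share of cells with a Trdc UMI was 14.0% in Control and 12.8% in NC-Foxc2-/-.

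Among 26 genes of receptor signaling and costimulation, 18 reached 50 UMIs, 0 were called higher and 1 lower, and their summed ratio was 0.771. The called gene was Skap1, an adaptor that couples the receptor to integrin adhesion, with 63 UMIs in 32 cells against 27 UMIs in 24 cells, 210.0 and 71.9 CPM, a ratio of 0.342 (0.210 to 0.546). It was at most 5 UMIs in any cell, and its ratio was 0.327 without the cells with other RNA. In all other kept cells Skap1 had a ratio of 0.759. Other genes of the pathway stood nearer 1. Lck, the kinase that starts the signal, was at 0.753 and Lat, the scaffold below it, at 0.685. The costimulatory receptor Cd28 stood at 0.589 (0.392 to 0.881) and its relative Icos at 1.21 (0.938 to 1.57). Txk, a kinase of the TEC family, had 51 and 105 UMIs, a ratio of 1.65 (1.17 to 2.35), and the actin regulator Coro1a had 236 and 163 UMIs, a ratio of 0.552 (0.449 to 0.677).

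Cytotoxic granule genes were lower in sum in the NC-Foxc2-/- library. The 14 genes summed to 1426 UMIs in Control and 1236 in NC-Foxc2-/-, 4754 and 3292 CPM, a ratio of 0.693 (0.641 to 0.748), and 0.717 without the cells with other RNA. Of 8 that reached 50 UMIs, 0 were called higher and 2 lower. Gzma had 452 UMIs in 17 Control cells and 274 UMIs in 19 NC-Foxc2-/- cells, 1507 and 729.8 CPM, a ratio of 0.484 (0.415 to 0.564). No cell gave more than 94 of these UMIs in Control or 43 in NC-Foxc2-/-, and the ratio was 0.479 without the cells with other RNA. In the other kept cells, which include the 29 and 44 cells that lacked only a Ptprc UMI, Gzma had 111 UMIs in all. The ratio there was 2.75, and which of those cells held the UMIs was not tested. Serpinb6b, an inhibitor of granule proteases, had 76 and 44 UMIs, a ratio of 0.463, which was 0.520 without the cells with other RNA and then not called.

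Other granule genes leaned the same way without a call. Nkg7, a granule membrane protein used by the rule, had 101 UMIs in 20 cells and 67 UMIs in 20 cells, a ratio of 0.530 (0.383 to 0.729). Ctsw stood at 0.576 (0.382 to 0.863) and Serpinb9, the inhibitor of granzyme B, at 0.579 (0.379 to 0.876). Prf1, the pore-forming perforin, had 21 UMIs in 6 cells against 9 UMIs in 9 cells, and the death ligand Fasl 28 UMIs against 16, both under 50 UMIs. Gzmb, in contrast, had 44 UMIs in 14 cells and 57 UMIs in 10 cells, a ratio of 1.04 (0.686 to 1.57), with 29 of the 57 in 1 cell. Srgn, the proteoglycan that packs granules and is also found in other leukocytes, was level at 0.969 (0.862 to 1.09).

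**Figure D2:**
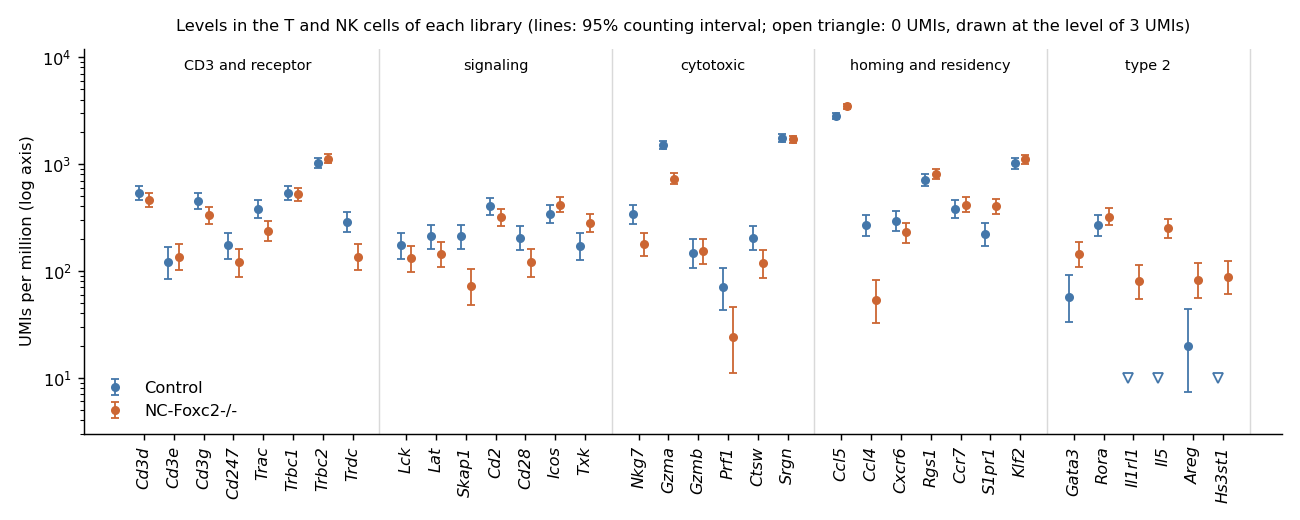
UMIs per 1000000 UMIs (log axis) of genes of the receptor, signaling, cytotoxic granules, homing and residency, and the type 2 group, summed over the T and NK cells of each library, with 95% counting intervals; an open triangle marks 0 UMIs, drawn at the level of 3 UMIs. Gzma lay at 1507 and 729.8, Ccl5 at 2810.1 and 3463, and Il5 at 250.4 in NC-Foxc2-/- with 0 UMIs in Control.

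Chemokines differed gene by gene. Ccl5 (chr11:83525778-83530518), which draws T cells and monocytes, was the most abundant chemokine, with 843 UMIs in 17 Control cells and 1300 UMIs in 24 NC-Foxc2-/- cells, 2810.1 and 3463 CPM, a ratio of 1.23 (1.13 to 1.35). In all other kept cells the ratio of Ccl5 was 6.24, and macrophages had 168 and 824 CPM. Ccl4, which draws monocytes and lymphocytes, went the other way, with 80 UMIs in 6 cells against 20 UMIs in 7 cells, a ratio of 0.200 (0.116 to 0.329), and 0.229 without the cells with other RNA. A single Control cell held 49 of the 80. In all other kept cells the ratio of Ccl4 was 5.05, with 1505 and 4829 CPM in macrophages, so the T and NK cells and the tissue around them differed in opposite directions. Of 15 chemokines and receptors, 5 reached 50 UMIs, and Ccl4 was the 1 called.

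Receptors of residency and recirculation split the cells. Cxcr6, which holds T cells and innate lymphocytes in tissue, had 88 UMIs in 19 Control cells and 86 UMIs in 31 NC-Foxc2-/- cells, and Ccr7, the lymph node homing receptor, had 114 and 156 UMIs, 380.0 and 416 CPM, a ratio of 1.09 (0.853 to 1.40). Of 50 cells with Cxcr6 and 63 with Ccr7, 8 had both. The share of cells with a Cxcr6 UMI was close between libraries, at 33.3% and 36.0%, with overlapping intervals, and at 17.5% and 19.8% after thinning to 1000 UMIs a cell. In macrophages Cxcr6 was seen in 0 of 109 Control cells, where a floor of 3 cells would be 2.75%, and in 1.35% of 148 NC-Foxc2-/- cells. The macrophages were the deeper cells, with a median of 6881 and 6394.5 UMIs against 3748 and 3647.

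Of 11 genes of naive and recirculating T cells, all reached 50 UMIs, 0 were called higher and 1 lower. S1pr1, which lets T cells leave tissue and lymph nodes, had 66 and 152 UMIs, a ratio of 1.84 (1.37 to 2.50), which was 1.25 (0.918 to 1.72) without the cells with other RNA. Ccr7 stood at 1.09 and at 0.742 (0.573 to 0.962) without them. Lef1, a transcription factor of naive T cells, stood at 0.650 (0.435 to 0.968) and at 0.454 without them, where it was called lower. Igfbp4, the called gene, went from 0.441 to 0.654. The list as a whole summed to 3567 and 3956 CPM, a ratio of 1.11, and of 0.883 without them, so its direction depended on those cells.

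**Figure D3:**
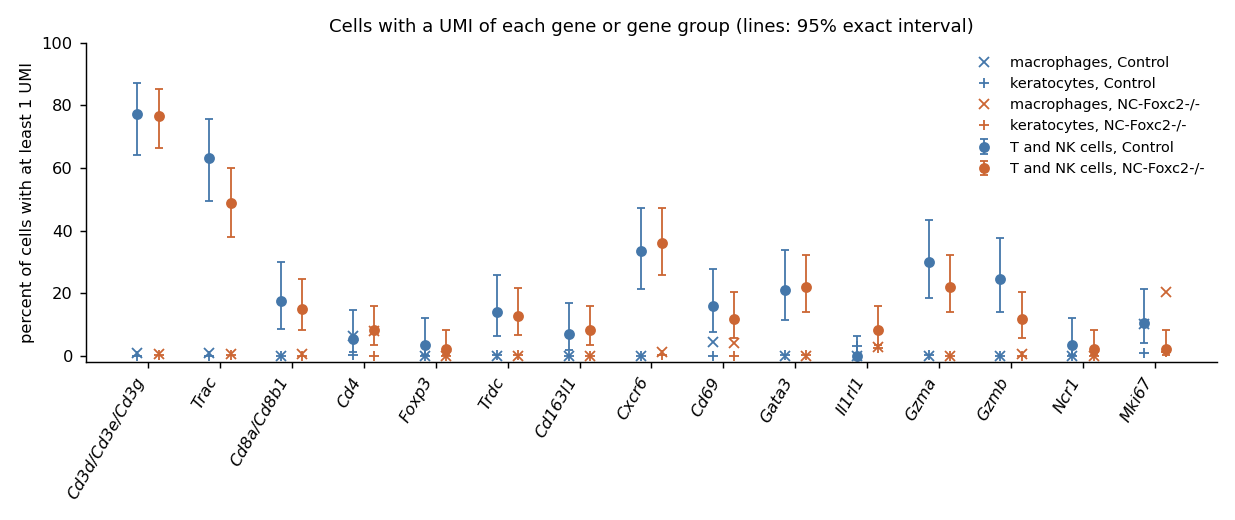
Percent of T and NK cells with at least 1 UMI of each gene or gene group in the Control (57 cells) and NC-Foxc2-/- (86 cells) libraries, with 95% exact intervals, and the same share in macrophages and keratocytes as background. Cd4 lies at the level of macrophages, whereas Trac, Cd8a or Cd8b1, Gzma and Cxcr6 lie above it.

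Lineage genes were read in single cells, although a cell of this depth can lack a UMI of a gene it uses. Trac was seen in 63.2% of Control and 48.8% of NC-Foxc2-/- cells, and in 26.3% and 26.7% after thinning, against 0.917% and 0.676% of macrophages. Cd8a or Cd8b1, the chains of the co-receptor for class I MHC, were seen in 17.5% and 15.1% of cells. Of these 23 cells, 0 had a UMI of Trdc, Foxp3, Cd4 or Ncr1. Cd4 was seen in 5.26% and 8.14% of cells, in 6.42% and 8.11% of macrophages and in 0.202% and 0.103% of keratocytes. Its share was thus close to that of macrophages and was not read on its own. All 10 cells with Cd4 had a CD3 UMI, as did 110 of all 143 cells, and 7 of the 10 had Trac. Foxp3, the factor of regulatory T cells, was seen in 2 cells of each library, and the 4 cells also held 16, 1, 11 and 7 UMIs of Ctla4. Ncr1 and Klrb1c, which mark NK cells, were seen in 2 and 2 cells and in 2 and 1 cells.

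The cells were laid out in 7 subgroups by their CD3, lineage and granule genes, with limits set after the values were seen, so the rule genes of each subgroup are a description. Cells with a Cd3d, Cd3e or Cd3g UMI numbered 44 of 57 in Control and 66 of 86 in NC-Foxc2-/-. Subgroup 1 had CD3 and at least 3 UMIs of Trdc, Trdv4, Tcrg-C1, Tcrg-V6 and Cd163l1 together, in 4 and 7 cells. Subgroup 2 had CD3 with Cd8a or Cd8b1, in 10 and 13 cells, and subgroup 3 CD3 with Cd4 or Foxp3, in 5 and 9 cells. Subgroup 4 had CD3 without any of these, in 25 and 37 cells. Subgroup 5 had no CD3 UMI and at least 3 UMIs of Gzma and Nkg7 together, in 10 and 12 cells. Subgroup 6 had no CD3 UMI and at least 2 UMIs of Il5, Il1rl1, Hs3st1 and Il13 together, in 0 and 4 cells, and subgroup 7 held the remaining 3 and 4 cells. As shares of the T and NK cells, subgroups 1 to 5 were close between libraries, at 7.02% and 8.14%, 17.5% and 15.1%, 8.77% and 10.5%, 43.9% and 43.0%, and 17.5% and 14.0%, and the intervals of each pair overlapped.

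Subgroup 1 was chosen by gamma delta receptor genes and shared genes of tissue residency and of type 17 cells. Trdv4 was seen in all 11 cells, 31 UMIs in all, and it was the only T cell receptor variable gene of the table to reach 5 UMIs over the T and NK cells. Cd163l1, a scavenger receptor of type 17 gamma delta T cells, was seen in 11 of the 143 cells, and all 11 also had Trdc, Trdv4, Cxcr6 and CD3, whereas 0 had Ccr7, Gzma or Nkg7. Cxcr6 was not part of the subgroup's rule and was seen in all 11 cells, at 1108 and 1393 CPM, a ratio of 1.26 (0.742 to 2.13). Icos, Il7r (the receptor of interleukin 7), Rora (a factor of type 17 and innate cells) and Hilpda (a lipid droplet protein) were seen in 10, 10, 10 and 11 of the 11, and Il23r, the receptor that sustains type 17 cells, in 5. Trdc itself had 56, 13, 3 and 7 UMIs in the 4 Control cells and from 2 to 12, with a median of 6, in the 7 NC-Foxc2-/- cells. The Control cell with 56 also held 5 Mki67 and 6 Pclaf UMIs, genes of dividing cells.

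In subgroup 2, the CD8 cells, Gzma and Ccr7 differed between libraries in opposite directions. Gzma had 87 UMIs in the 10 Control cells and 20 UMIs in the 13 NC-Foxc2-/- cells, and 5 cells of each library held any. In Control, 2 cells with 51 and 29 UMIs gave most of the sum, and in NC-Foxc2-/- 13 of the 20 came from a cell with 52 UMIs of other cell types. Without the cells with other RNA the sums were 86 in 8 cells and 3 in 11 cells. Ccr7 went the other way, with 13 UMIs in 5 of 10 cells against 41 UMIs in 10 of 13, 190 and 579 CPM, a ratio of 3.05 (1.60 to 6.21). Ccl5 had 165 and 112 UMIs, in 4 and 3 cells, a ratio of 0.657, and of 1.36 without the cells with other RNA. These values rested on few cells of each library.

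Subgroup 5, the cells with granule genes and no CD3 UMI, carried most of the Gzma. It held 348 of the 452 Control UMIs and 248 of the 274 NC-Foxc2-/- UMIs, at 6347 and 6489 CPM. Gzma per cell ranged from 0 to 94 with a median of 24.5 in Control and from 8 to 43 with a median of 16 in NC-Foxc2-/-, so the cells of both libraries overlapped. Genes of the NK cell list, which the rule did not use, were seen in many of them. Tyrobp and Fcer1g, the signaling adaptors of NK receptors, and Il2rb, the interleukin 2 and 15 receptor chain, were seen in all 22 cells, Klrk1, which encodes NKG2D, in 18, Klrd1 in 11, Klre1 in 10, Eomes, a factor of NK cells, in 8, Prf1 in 13 and Ncr1 in 4. T cell receptor chains were also seen, Trbc1 in 9 of the 22, Trbc2 in 8, Trdc in 7 and Trac in 2, and Cxcr6 was seen in 0.

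Within subgroup 5 the libraries differed in Ccl5 and Klf2. Ccl5 was seen in all 22 cells, with 2 to 109 UMIs and a median of 42.5 in Control and 1 to 222 and a median of 71.5 in NC-Foxc2-/-, 9629 and 24780 CPM by sum, a ratio of 2.57 (2.31 to 2.87). Without 2 Control cells that held 58 and 199 stromal UMIs, the larger of which had 23080 UMIs in all, the ratio of Ccl5 was 1.35 (1.20 to 1.52) and that of Gzma moved from 1.02 to 0.645 (0.537 to 0.775). Klf2, a factor of quiescence and recirculation, had 24 and 86 UMIs, 438 and 2250 CPM, a ratio of 5.14 (3.24 to 8.45). AW112010, a transcript of activated lymphocytes, stood at 5398 and 8766 CPM, a ratio of 1.62 (1.38 to 1.91). These 2 Control cells held 23080 and 8991 of the 54832 UMIs of the subgroup in that library, and Klf2 and AW112010 were not computed without them.

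Subgroup 4, the CD3 cells without other lineage genes, was the largest, with 62 cells. Naive and recirculating genes, which the rule did not use, were seen in many of them, Klf2 in 48 cells, S1pr1 in 43, Ccr7 in 37, Lef1 in 35 and Tcf7 in 34. Ms4a4b was seen in 50 of the 62. Of the 37 NC-Foxc2-/- cells 9 held 20 or more UMIs of other cell types, against 2 of 25 in Control, and Dcn, a stromal gene, stood at 1470 against 99.7 CPM there. Summed ratios in this subgroup therefore include stromal RNA of the NC-Foxc2-/- library.

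**Figure D4:**
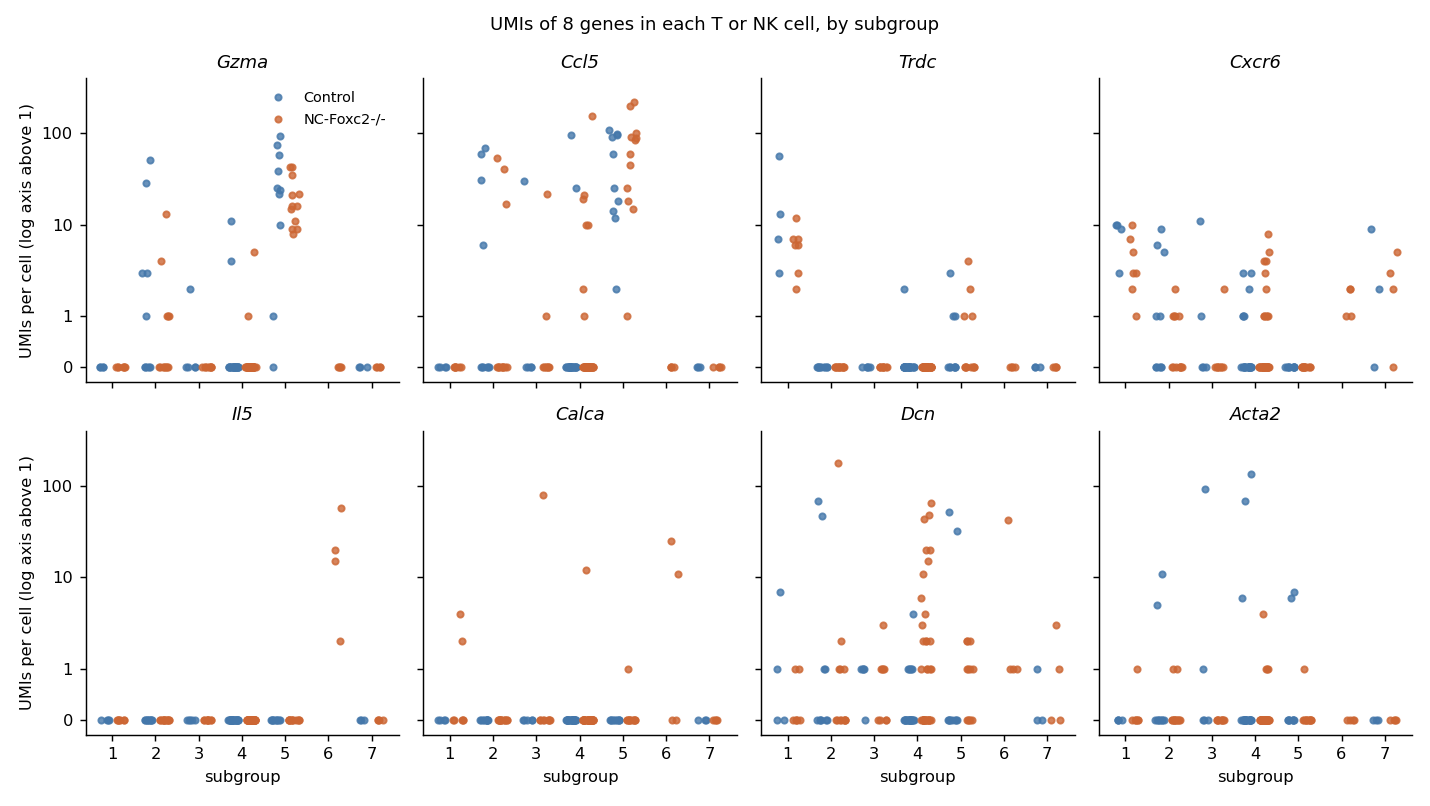
UMIs of 8 genes in each T or NK cell of the Control and NC-Foxc2-/- libraries, on an axis that is logarithmic above 1, by subgroup: 1, CD3 with Trdc or Cd163l1; 2, CD3 with Cd8a or Cd8b1; 3, CD3 with Cd4 or Foxp3; 4, CD3 without these; 5, no CD3 with Gzma or Nkg7; 6, no CD3 with Il5, Il1rl1 or Hs3st1; 7, the rest. Il5 is seen only in the 4 cells of subgroup 6, all NC-Foxc2-/-, and Gzma mostly in subgroup 5.

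Of the lists of lymphocyte genes, the type 2 list had the highest ratio. Its 12 genes, those of innate lymphoid cells that make type 2 cytokines and that regulatory and helper T cells partly share, summed to 210 UMIs in Control and 572 in NC-Foxc2-/-, 700.0 and 1524 CPM, a ratio of 2.18 (1.85 to 2.56), and 2.33 without the cells with other RNA. Of 4 that reached 50 UMIs, 2 were called higher and 0 lower. Of all 12, 6 were seen in Control and 11 in NC-Foxc2-/-. A single NC-Foxc2-/- cell held 146 of the 572 UMIs. The 4 cells of subgroup 6 held 94 Il5, 83 Hilpda, 27 Rora, 22 Gata3, 21 Areg, 21 Hs3st1 and 19 Il1rl1 UMIs. The ratio of the list thus rested largely on these cells, and it was not computed without them.

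Gata3, the transcription factor of type 2 lymphocytes, had 17 UMIs in 12 Control cells and 54 UMIs in 19 NC-Foxc2-/- cells, 56.7 and 144 CPM, a ratio of 2.54 (1.45 to 4.67), and 2.08 without the cells with other RNA. The share of cells with a Gata3 UMI was 21.1% and 22.1%, and 3.51% and 10.5% after thinning to 1000 UMIs. Il5, the cytokine of eosinophils, had 0 UMIs in Control and 94 in NC-Foxc2-/-, 250.4 CPM, which is at least 25.0-fold higher against a floor of 3 UMIs in Control. Without the cells with other RNA, the lower bound of the ratio of Il5 was 15.2. The 94 came from 4 cells with 57, 20, 15 and 2. In all other kept cells Il5 had 0.519 and 2.11 CPM. Il1rl1 (chr1:40429570-40465415), the receptor of interleukin 33, had 0 and 30 UMIs, in 7 cells, at least 7.99-fold higher. Il1rl1 was also seen in 3.13% and 2.64% of keratocytes and, in NC-Foxc2-/-, in 2.70% of macrophages, against 8.14% of T and NK cells, so its share is read only against that background. For the 0 of 57 T and NK cells in Control, a floor of 3 cells would be a share of 5.26%.

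The 4 Il5 cells had no CD3 UMI, as the rule of subgroup 6 required, and their Il1rl1 counts, also part of that rule, were 6, 3, 4 and 6. Among genes that did not choose them, all 4 had Cxcr6, Icos, Rora, Il7r and Hilpda, and 3 had Gata3 with 9, 7 and 6 UMIs. Cxcr6, Icos, Rora, Il7r and Hilpda were also seen in 11, 10, 10, 10 and 11 of the 11 cells of subgroup 1, so they are not particular to the Il5 cells. Cxcl2, a neutrophil chemokine, had 126, 23, 0 and 19 UMIs in them, Areg, a growth factor of tissue repair, 7, 4, 0 and 10, and Calca 11, 25, 0 and 0. These cells had 7785, 7596, 3783 and 3468 UMIs, and the second was called a doublet and held 113 stromal UMIs. They passed as T and NK cells through Trbc2, of which they held 10 UMIs in all, so the label did not describe them in full. With 0 such cells in Control, where a floor of 3 cells would be 5.26%, and 4 in NC-Foxc2-/-, 4.65% (1.28 to 11.5%), a difference in their share was not detectable at this depth.

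Calca (chr7:114631478-114636357), the gene of calcitonin and the neuropeptide CGRP, had the largest ratio among genes of at least 100 UMIs. It had 0 UMIs in Control and 135 in 7 NC-Foxc2-/- cells, 359.6 CPM, at least 35.96-fold higher against the same floor of 3 UMIs, with 80 of the 135 in 1 CD3 cell that also held 4 Il1rl1 UMIs. Without the cells with other RNA, the lower bound of the ratio of Calca was 22.6. In all other kept cells the ratio of Calca was 3.01. Cxcl2 followed, with 7 UMIs in 1 Control cell and 175 in 9 NC-Foxc2-/- cells, a ratio of 19.98 (9.49 to 50.4), with 126 in 1 cell. Macrophages held 9189 and 18750.2 CPM of Cxcl2, and whether their RNA reached these cells was not tested. Interleukin 22, in turn, was seen only in Control, where Il22 had 11 and 2 UMIs in 2 cells without CD3, and 0 in NC-Foxc2-/-.

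Regulatory and inhibitory genes gave mixed values. Ctla4 had 34 UMIs in 11 cells and 74 UMIs in 21, a ratio of 1.74 (1.14 to 2.69), and 2.43 without the cells with other RNA, where it was called higher. Pdcd1, the inhibitory receptor PD-1, had 55 and 34 UMIs, a ratio of 0.494 (0.312 to 0.771), called lower, and 0.537 without them. Ikzf2 stood at 0.663 (0.422 to 1.04) and Tnfrsf18 at 1.08 (0.775 to 1.50). Capg, an actin-capping protein, had 51 UMIs in 13 cells and 27 UMIs in 8, a ratio of 0.423, called lower, but at 0.659 without the cells with other RNA, where it had 14 and 15 UMIs and was under the minimum. Of 11 regulatory T cell genes, 5 reached 50 UMIs, 0 were called higher and 1 lower, with a summed ratio of 0.986 (0.833 to 1.17). Without the cells with other RNA 3 reached 50 UMIs, 1 was called higher and 0 lower, with a summed ratio of 1.59 (1.27 to 2.02).

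The 11 glycolysis genes summed to a ratio of 0.549 (0.512 to 0.588), and to 0.654 without the cells with other RNA. Gapdh had 719 and 377 UMIs, 2397 and 1004 CPM, a ratio of 0.419 (0.369 to 0.475), 0.490 without the cells with other RNA, and 0.522 in all other kept cells. All 11 reached 50 UMIs, 0 were called higher and 6 lower, and without those cells 9 reached 50 UMIs, 1 was higher (Hk2, a hexokinase) and 2 lower (Gapdh and Tpi1). Ldha, lactate dehydrogenase, stood at 0.893 (0.774 to 1.03). Some abundant genes outside the lists were also called lower, and apart from Anxa2 were named after their values were seen. Actb, beta actin, had 1822 and 767 UMIs, a ratio of 0.336 (0.309 to 0.366), 0.374 without those cells, and 0.553 elsewhere. The intermediate filament gene Vim stood at 0.420, the galectin Lgals1 at 0.341 and Anxa2, an annexin, at 0.238, all called lower with and without those cells, and in all other kept cells their ratios were 1.11, 1.21 and 0.446.

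Cell cycle genes were lower in sum in the NC-Foxc2-/- library. The 12 genes summed to 713 and 479 UMIs, a ratio of 0.537 (0.477 to 0.604), with 144 of the 713 in 1 cell, and 0.726 without the cells with other RNA. Stmn1, a microtubule regulator, stood at 0.346 and Tubb5, a tubulin, at 0.393, the 2 called lower, but at 0.513 and 0.539 without those cells, where neither was called. Mki67 was seen in 6 Control cells and 2 NC-Foxc2-/- cells, 10.5% (3.96 to 21.5%) and 2.33% (0.283 to 8.15%). These intervals overlapped and the cells were few, so no difference is read from it. It was seen in 10.1% and 20.3% of macrophages and in 0.908% and 1.13% of keratocytes.

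No interferon response gene was called. Of 21, 11 reached 50 UMIs and 0 were called in either direction, with a summed ratio of 1.16 (1.04 to 1.30), and 0.956 without the cells with other RNA. Of 12 class I MHC genes 10 reached 50 UMIs and H2-T23, the ligand of NK receptors of the NKG2 family, was the 1 called higher, with 31 UMIs in 23 cells and 86 UMIs in 40, a ratio of 2.22 (1.45 to 3.46), which was 1.96 without the cells with other RNA and then not called. B2m stood at 1.27 (1.10 to 1.47) and H2-K1 at 0.794 (0.717 to 0.879). Class I genes share long stretches of sequence, so their split is uncertain. Of 18 immediate early genes 15 reached 50 UMIs and Gadd45b was the 1 called lower, at 0.441, but it stood at 0.936 without those cells. Of 12 heat shock genes all reached 50 UMIs, with Hspa1b higher at 2.46, but at 0.677 and so on the other side of 1 without those cells, and Hspa5, a chaperone of the endoplasmic reticulum, lower at 0.445, and at 0.587 and not called without them.

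Some of the largest ratios were seen across the tissue. Ost4, a subunit of the oligosaccharyltransferase, had 18 UMIs in 15 cells and 91 UMIs in 53, a ratio of 4.04 (2.42 to 7.12), against 2.45 in all other kept cells. Lars2, the mitochondrial leucyl-tRNA synthetase, stood at 2.88 against 3.02, and Gm42418, which overlaps ribosomal RNA, at 3.12 against 2.73. Of the 58 higher genes 17 also had a ratio of at least 2 in all other kept cells, as did 2.75% of all 1927, and of the 139 lower genes 17 had a ratio of at most 0.5 there, as did 2.65%. Mxd1, a MAX partner that opposes MYC, had 29 UMIs in 19 cells and 90 UMIs in 47. Its ratio was 2.48 (1.62 to 3.91), against 0.349 in all other kept cells pooled. Macrophages had 105 CPM of Mxd1 in Control and 180 CPM in NC-Foxc2-/-, so the higher level was not particular to the T and NK cells. Of the 1927 genes, the lowest ratios were Acta2 at 0.0262, Myl9 at 0.0266, Tagln at 0.0328 and Tpm2 at 0.0486. These are contractile genes of pericytes and smooth muscle. Acta2 was seen in 9 Control cells, 7 of them with 20 or more UMIs of another cell type. The limit of 20 UMIs counted Acta2 and Tagln themselves, so this overlap was partly set by the limit. Where their RNA came from was not tested.

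**Figure D5:**
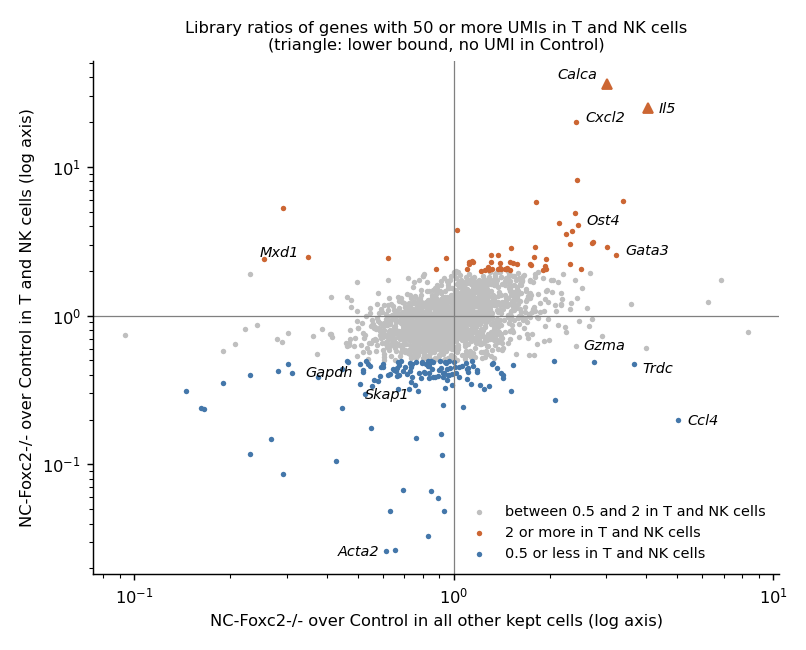
Ratio of NC-Foxc2-/- over Control in T and NK cells (vertical, log axis) against the same ratio in all other kept cells (horizontal, log axis) for the 1927 genes with at least 50 UMIs, with genes at 2 or more and at 0.5 or less coloured and 2 triangles at lower bounds. Gzma, Trdc and Ccl4 lie below 1 in T and NK cells and above 1 elsewhere, Mxd1 lies above 1 and below 1, and Ost4 lies above 1 in both. All other kept cells include those that met the T and NK rule but for a Ptprc UMI.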

How the data were processed

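Dissociated anterior segments of 1 Control and 1 NC-Foxc2-/- pool were profiled by droplet single-cell RNA-seq. According to the study's methods, the authors aligned reads to mm10 with Cell Ranger 4.0.0 and deposited raw UMI counts per gene and barcode, which were used as deposited. The published filter of 8% mitochondrial UMIs was applied here, together with at least 500 UMIs; marked doublets were kept. Counts were summed over the T and NK cells of each library and divided by their total (CPM, UMIs per 1000000 UMIs). Ratios are NC-Foxc2-/- over Control. Shares have Clopper-Pearson intervals, levels exact Poisson intervals and ratios exact conditional binomial intervals, all at 95%. With 1 library in each group there was no test, and a gene was called by size. Intervals came from SciPy 1.17.1, doublet calls from Scrublet in scanpy 1.11.5 and plots from matplotlib 3.10.9, under Python 3.11.15 with pandas 2.3.3, and the ratio and call steps were tested on simulated data.

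Genes named were those of the rule, genes with at least 10 UMIs from 33 lists, the 10 genes furthest above and the 10 furthest below 1 in ratio, given 100 UMIs and 100 CPM or more (sex-linked, mitochondrial, ribosomal protein and haemoglobin genes left out), the 15 highest over all other kept cells, and T cell receptor variable genes with at least 5 UMIs. AW112010, Foxc2 and other genes outside these were named after their values were seen. The cells and the gene lists were chosen with earlier results of these data known. Alternatives changed the UMI, mitochondrial, T and NK gene, C1q and Kera limits, the doublets, the call minimum, the scaling, the depth per cell and the weight of each cell. Gene positions are from GENCODE vM21 (GRCm38). Some genes that this rule would name are not reported here.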

Additional observations from a re-analysis of the deposited data

How the results depend on the processing

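With 1 library per genotype no replicate could be left out, and the limits of counting and of the few cells apply to every ratio. The ratio of the share of T and NK cells ran from 1.05, with cells with a Ptprc UMI as the denominator, to 1.58 over the alternatives. Each of these ratios was above 1, but with the 2 changed denominators the intervals, 0.745 to 1.50 and 0.874 to 1.78, included 1. Calls depended most on the depth limit and on the cells with RNA of another cell type, an alternative chosen after seeing the data. Against 58 genes higher and 139 lower, there were 36 higher and 31 lower without those cells, 207 and 412 of 4237 genes at a minimum of 20 UMIs, 25 and 64 of 944 at a minimum of 100 UMIs, and 11 and 10 of 352 with each cell thinned to 1000 UMIs. With the mean of the CPM of each cell 73 were higher and 82 lower. Fewer genes reached the minimum in the thinned cells and at 100 UMIs. For named genes, 1434 recomputed ratios moved by less than their counting interval, 159 moved by more and 5 were of a called gene that changed sides of 1. Genes that were not called, such as Ccr7, could also change sides and are not in that count. The ratio of Hspa1b was 0.575 without doublets and 0.677 without the cells with other RNA, the ratio of Col1a2 was 0.703 without doublets, the ratio of Slc2a1 was 1.10 in thinned cells and the ratio of Trdc was 1.05 with each cell weighted equally. The cause of these changes was not tested. The lower bound of the ratio of Il5 ran from 4.20 to 27.3 and the lower bound of the ratio of Calca from 7.73 to 39.2. Of the shares of cells with a UMI, 26 of 336 moved beyond their interval, all of them in thinned cells. No paired analysis was possible because each genotype had 1 library and no result came from a test.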
